A study of Rattus norvegicus with 12 samples.

Results

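The comparison described here sets cardiomyocytes that received the K815R mutant of KAT6A against cardiomyocytes whose libraries are labelled K815Q, over all expressed genes. It rests on 6 of the 12 RNA libraries of the study, 3 per group, chosen by their labels, and on the 14063 of 32883 annotated rat genes with enough reads to be tested. KAT6A (also called MOZ) is a histone acetyltransferase of the MYST family, which works in a complex with BRPF proteins, ING5 and MEAF6 and keeps developmental genes, HOX genes among them, active. MYST enzymes are themselves acetylated on a lysine of the catalytic domain, and K815 is not taken here to be that lysine. Arginine in place of a lysine keeps the positive charge and cannot be acetylated, whereas glutamine lacks the charge and is used as a stand-in for acetyl-lysine.

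The cells were primary ventricular cardiomyocytes of newborn rats, which in culture respond to growth stimuli with hypertrophy, and they were collected 2 days after infection with adenovirus. Every group carried a virus: LacZ, a bacterial gene that serves as control cargo, wild-type human KAT6A (WT), human KAT6A K815R, which the study treats as resistant to acetylation, or human KAT6A K815Q, which it treats as a mimic of acetylation. The labels name no promoter for the transgenes and no separate cultures or litters for the replicates, so p-values measure only the spread between these libraries, which may be technical. Counts per gene do not tell reads of the human transgene from reads of the rat gene.

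Gene counts summed to 20076614 to 25451686 in the K815R libraries and 19192015 to 19906699 in the K815Q-labelled libraries, so K815R was sequenced somewhat more deeply. Levels are given as CPM, which relates the reads of a gene to the TMM-scaled total of its library, and 3 counts correspond to 0.118 to 0.156 CPM in these 6 libraries. Markers of cardiomyocytes, which define the labelled cell type, summed to 53890 to 55200 CPM in K815R and 49320 to 52260 CPM in the K815Q-labelled libraries, so both groups were rich in heart muscle RNA. The sums did not overlap, but only 5 of the 9 markers were higher in K815R, their median log2 fold change was 0.03 and 0 were called by edgeR (3 at an unadjusted p under 0.05). Without the abundant Actc1 and Nppa, left out after their values were seen, the other 7 summed to 28210 to 29030 CPM in K815R and 28300 to 29740 CPM in the K815Q-labelled libraries, and overlapped. Fibroblast markers summed to 11130 to 11570 CPM in K815R and 11980 to 12870 CPM in the other group, so that every K815R library was lower. In bulk RNA, fewer cells of a type and less RNA per cell cannot be told apart.

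Kat6a, the gene delivered, checks the labels and was read first. Rat Kat6a (ENSRNOG00000025174) stood at 102, 122 and 101 CPM in the K815R libraries and at 43.4, 50.0 and 45.7 CPM in the K815Q-labelled libraries. The groups did not overlap, with a log2 fold change of 1.22 (SE 0.109; edgeR quasi-likelihood test, Benjamini-Hochberg adjusted p = 3.53e-04). LacZ cells, which received no KAT6A, stood at 48.1 ± 4.75 CPM and WT cells at 93.0 ± 12.3 CPM (SD, n = 3 each). The K815Q-labelled libraries therefore lie at the LacZ level of Kat6a and do not show the raised level that their label calls for. They are named by their label throughout, and every direction below is K815R relative to libraries so labelled. The groups also differed 13.4-fold in Prkaa2, described below. Whether another difference between the groups goes with the mutation, with the level of Kat6a or with that of Prkaa2 cannot be told apart here.

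**Figure D1:**
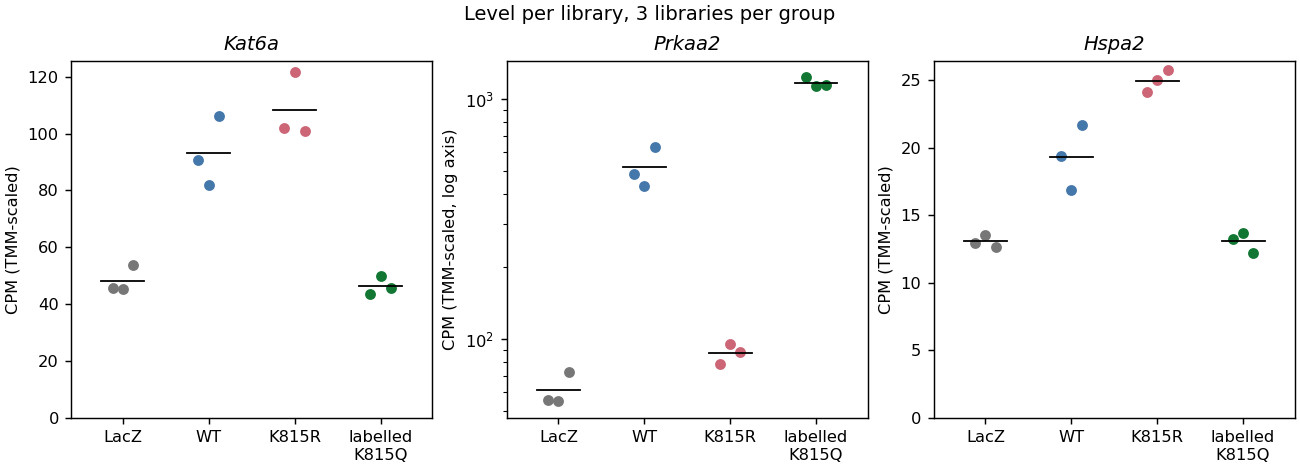
Level of Kat6a, Prkaa2 and Hspa2 in each of the 12 libraries, in TMM-scaled CPM (log axis for Prkaa2), with 1 point per library and a line at the mean of each group of 3. Kat6a is near 48.1 CPM in LacZ and in the K815Q-labelled libraries, Prkaa2 is highest in the K815Q-labelled libraries, and Hspa2 is highest in K815R.

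Of the 14063 genes, 51 differed between K815R and the K815Q-labelled libraries at an adjusted p under 0.05 in edgeR (0.363% of genes tested). Of these, 30 were higher in K815R (0.213%) and 21 were lower (0.149%). An unadjusted p under 0.05 was reached by 1598 genes (11.4%), the share to set beside such counts in the gene lists below. Most differences were small: the median absolute log2 fold change was 0.54 among the called genes and 0.08 among all tested genes, and only 10 higher genes and 1 lower gene reached a 2-fold change. The genes that led were Prkaa2 on the lower side and, on the higher side, Kat6a itself, the chaperone gene Hspa2 and a set of developmental genes that were close to the detection limit in the K815Q-labelled libraries. In all 51 called genes the 3 and 3 libraries did not overlap, against 16% of all tested genes.

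The number of calls depended on single libraries. Without K815Q replicate 1 it was 11, without K815R replicate 2 it was 17, without K815Q replicate 3 it was 18, without K815R replicate 3 it was 25, without K815R replicate 1 it was 36 and without K815Q replicate 2 it was 98. Leaving out K815Q replicate 1 ended 41 of the 51 calls. Prkaa2, Kat6a, Hspa2, Nptx2, Cebpa, Nppb, Dusp4, Barx1 and Pou3f1, 9 genes in all, stayed called in all 6 of these fits, and no called gene changed direction in any of them. Other tools called more: DESeq2 101 genes, and edgeR without the filter on low counts 307. DESeq2 gave no adjusted p for Barx1, Pou3f1, Wnt7b, Nkx6-1, Amn, Bhlhe23 and AABR07058422.1, so it called none of these.

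**Figure D2:**
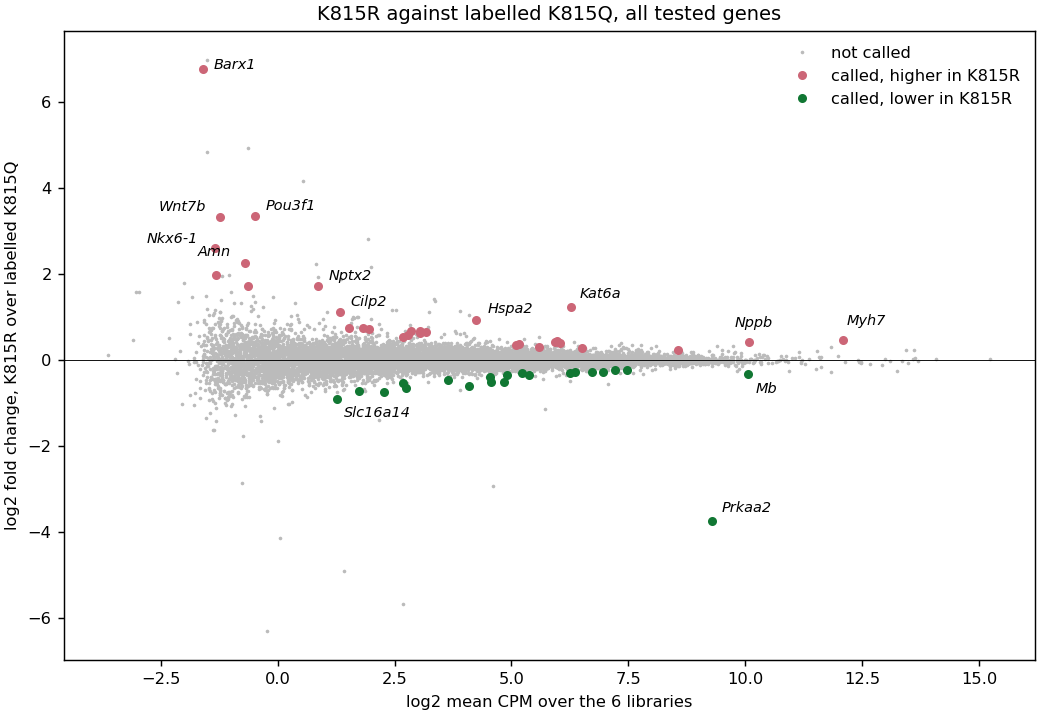
Log2 fold change of K815R over the K815Q-labelled libraries (vertical) against the log2 mean CPM of the 6 libraries (horizontal), with 1 point per tested gene. The 30 genes called higher and the 21 called lower are coloured; Prkaa2 is the only called gene at least 2-fold lower.

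Prkaa2 (ENSRNOG00000007706), which encodes the alpha 2 catalytic subunit of the energy-sensing kinase AMPK, differed more than any other called gene of comparable abundance. It stood at 78.1, 95.4 and 88.1 CPM in K815R and at 1232, 1134 and 1138.5 CPM in the K815Q-labelled libraries. Every K815R library lay far below every library labelled K815Q, a 13.4-fold difference (log2 fold change −3.74, SE 0.171; edgeR quasi-likelihood test, Benjamini-Hochberg adjusted p = 5.26e-05). The LacZ mean was 60.9 CPM and the WT mean 519 CPM, so K815R was near the LacZ end and the K815Q-labelled libraries were above WT.

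The other AMPK subunits showed no such difference. Prkaa1, the alternative catalytic subunit, stood at 47.7, 37.6 and 42.8 CPM in K815R and 40.9, 47.1 and 40.1 CPM in the K815Q-labelled libraries, and the groups overlapped. Its log2 fold change was −0.00 with a 95% interval of −0.20 to 0.19. The regulatory subunits Prkab1, Prkab2, Prkag1 and Prkag2 had log2 fold changes of −0.13, 0.17, 0.04 and −0.03, and none was called. Among 14 tested AMPK subunits and upstream kinases Prkaa2 was the only call, and the median log2 fold change was −0.03 beside −0.0008 for all genes.

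Genes that AMPK and mitochondrial regulation are known for differed little. Ppargc1a, the coactivator of mitochondrial biogenesis, had a log2 fold change of −0.02 (95% interval −0.21 to 0.17), Esrra, its nuclear receptor partner, −0.00 (−0.11 to 0.10) and Tfam, the mitochondrial transcription factor, 0.03 (−0.08 to 0.15). Cpt1b, which carries fatty acids into mitochondria, had 0.09 (−0.03 to 0.21). Of 27 tested AMPK and mTOR effectors and 19 regulators of mitochondrial biogenesis, 0 were called, with 6 and 1 at an unadjusted p under 0.05. Pdk4, which restrains pyruvate dehydrogenase, stood at 7.11, 7.21 and 6.58 CPM in K815R and 3.38, 6.14 and 5.89 CPM in the K815Q-labelled libraries. Its groups did not overlap, with K815Q replicate 1 the lowest library, but it was not called (log2 fold change 0.44, SE 0.149; edgeR, Benjamini-Hochberg adjusted p = 0.229). Leave-one-out values of Pdk4 ran from 0.21 to 0.59.

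The largest fold differences on the higher side were in developmental genes that cardiomyocytes hardly express. Barx1, a homeobox factor of craniofacial and stomach development, had 12, 20 and 11 reads in the K815R libraries and 0, 0 and 0 in those labelled K815Q. Against a floor of 3 reads over the group it was 12.5-fold higher in K815R, and the lower 95% counting limit of the ratio was 9.71 (edgeR, Benjamini-Hochberg adjusted p = 0.00222). It also had 0 reads in all 3 LacZ libraries and 1 read over the 3 WT libraries.

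Pou3f1, a POU homeobox factor of neural and Schwann cell development, had 22, 38 and 27 reads in K815R and 1, 4 and 2 reads in the K815Q-labelled libraries. K815R was 10.8-fold higher, with a 95% counting interval of 5.03 to 27.7 (edgeR, Benjamini-Hochberg adjusted p = 2.63e-04). WT had 9 and LacZ 5 reads over their 3 libraries, so K815R stood apart from all 3 other groups. Counting intervals and the floor cover counting error only.

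Wnt7b, a secreted WNT ligand, had 17, 17 and 16 reads in K815R and 1, 0 and 3 in the K815Q-labelled libraries. The ratio was 10.9 (3.99 to 41.5; edgeR, Benjamini-Hochberg adjusted p = 0.0124). Without K815Q replicate 1 its log2 fold change was 3.19 and the edgeR Benjamini-Hochberg adjusted p was 0.131. Nkx6-1, a homeobox factor of the pancreas and spinal cord, had 15, 17 and 12 reads in K815R and 4, 1 and 1 in the other group, a ratio of 6.38 (2.71 to 18.3). Its call was kept in 1 of the 6 leave-one-out fits, that without K815Q replicate 1, with a log2 fold change of 2.29 to 3.54.

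In Amn, which encodes the amnionless subunit of the cubilin receptor, K815R had 15, 30 and 23 reads and the K815Q-labelled libraries 5, 1 and 6, a ratio of 4.93 (2.65 to 10.0). Bhlhe23, a neuronal basic helix-loop-helix factor, had 14, 17 and 11 reads against 2, 5 and 2, a ratio of 4.06 (1.95 to 9.49). Amn kept its call in 4 and Bhlhe23 in 1 of the 6 leave-one-out fits, and without K815Q replicate 1 both were lost, at 2.45 and 1.77. WT lay between the groups in both, with 37 reads of Amn and 19 of Bhlhe23 over 3 libraries. AABR07058422.1, an unnamed locus, had a ratio of 3.33 (1.93 to 6.05) and lost its call in all 6 of those fits. With these, 7 called genes had a mean under 1 CPM over the 6 libraries. Genes this low passed the filter on low counts mainly through the K815R libraries, so their common direction supports nothing by itself.

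**Figure D3:**
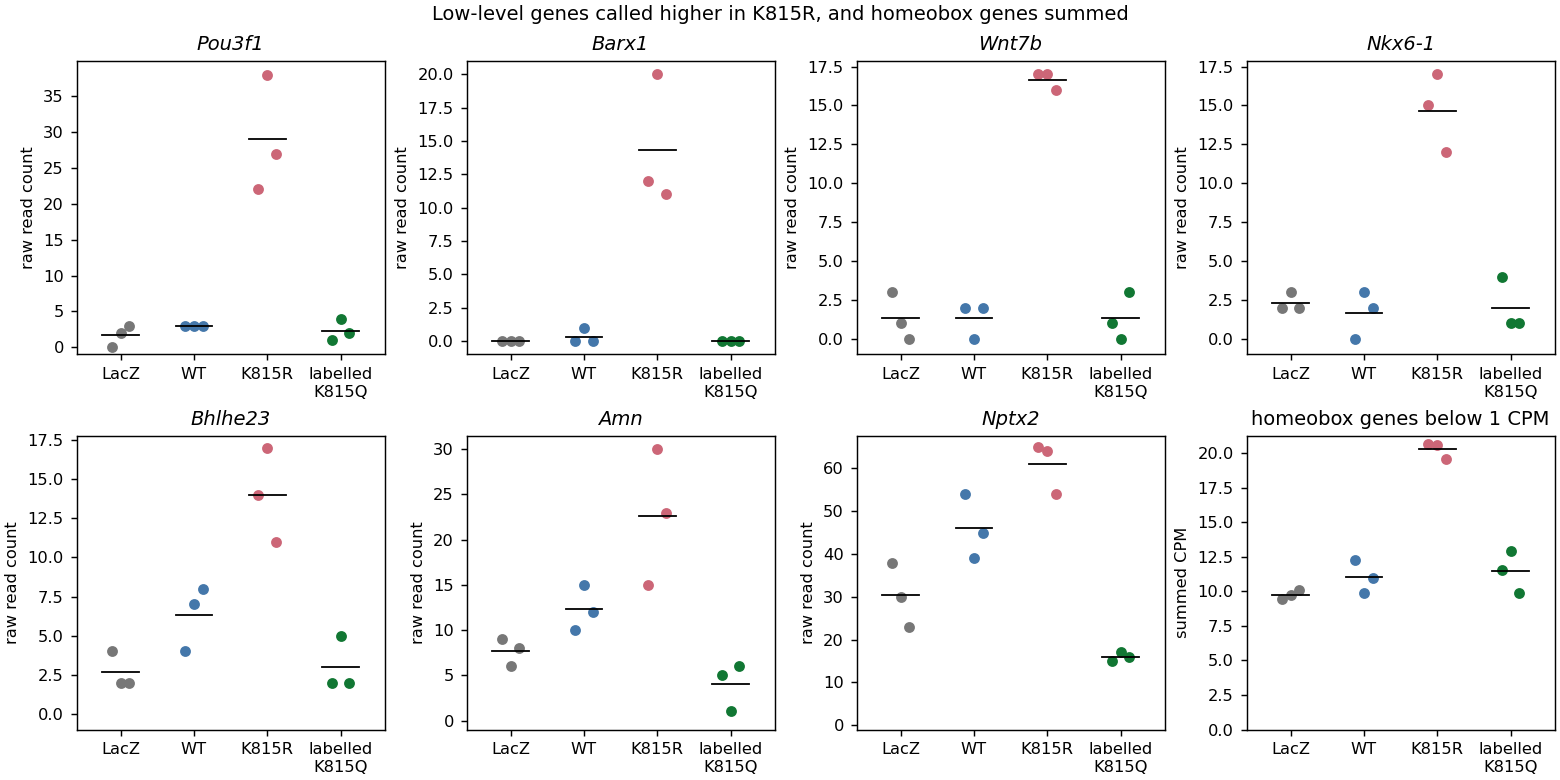
Raw read counts per library of 7 called genes and, at the lower right, the summed CPM of 106 homeobox genes below 1 CPM, with 1 point per library and a line at the group mean. The homeobox sum is 19.6 to 20.7 CPM in K815R and 9.43 to 12.9 CPM in the 9 other libraries.

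The pattern reached below the level at which genes could be tested. Over the 21235 genes with a read in these 6 libraries, 24 had at least 5 reads in each K815R library and at most 3 in each library labelled K815Q (0.113%), whereas 2 met the reverse rule (0.00942%). Of the 24, only 3 passed the filter on low counts and 2 of those were called, Barx1 and Wnt7b. The K815R libraries are deeper, which favours this direction; with limits set in CPM (0.25 and 0.15) the numbers were 15 and 2. Leaving out 1 library in turn gave 33 to 54 genes in the one direction and 7 to 14 in the other. Because the rule asks every library to pass, leaving 1 out cannot lower either number, so these fits are no check of the difference.

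Members of these 24 were named after their values were seen, and no share of any gene class was tested. The T-box factor Tbx1 had 10, 17 and 7 reads in K815R against 1, 1 and 2 in the K815Q-labelled libraries, and the hindlimb factor Pitx1 had 14, 8 and 6 against 1, 0 and 0. The ligand gene Wnt1 had 10, 14 and 6 reads against 0, 0 and 0, and the zinc finger gene Sp9 had 12, 10 and 18 against 0, 1 and 2. Tlx1, Nkx2-3, Skor1 and Tfap2e, all transcription regulators, belong here too, as do the neural genes Gad1, Vgf, C1ql1 and C1ql4. In 14 of the 24, Barx1 among them, no WT or LacZ library had more than 3 reads. The rule that picked the 24 asked for at least 5 reads in each K815R library, so this supports no difference by itself.

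Homeobox genes were then counted as a family, a choice made after these values were seen. The members already named, Barx1, Pou3f1, Nkx6-1, Pitx1, Tlx1 and Nkx2-3, remain in the counts and sums below. These counts and sums are therefore not independent of the values that led to the choice. Of 106 homeobox genes below 1 CPM with a read, 82 had a higher mean in K815R (77.4%), whereas among all 8512 genes below 1 CPM the share was 46.9%. In 21 of the 106 every K815R library was above every library labelled K815Q, and in 0 was every one below; over all genes below 1 CPM these shares were 3.81% and 4.3%. Those 106 genes summed to 20.7, 20.6 and 19.6 CPM in K815R and to 11.5, 12.9 and 9.90 CPM in the K815Q-labelled libraries. WT, at 9.87 to 12.3 CPM, and LacZ, at 9.43 to 10.1 CPM, lay with the K815Q-labelled libraries and not with K815R. Kat6a averaged 93.0 CPM in WT, and the part of its level in the homeobox sums was not tested. All genes below 1 CPM together summed to 1415 to 1424 CPM in K815R and 1409 to 1433 CPM in the K815Q-labelled libraries, and these ranges overlapped. With the more abundant homeobox genes included, the sum was 821 to 827 CPM in K815R and 817 to 845 CPM in the K815Q-labelled libraries, and overlapped. Leaving out 1 library in turn left 76 to 83 homeobox genes higher in K815R.

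Promoter sequence was read for genes that led the comparison, to show what lies upstream of them. RefSeq windows of assembly GRCr8 were matched by symbol for 20 of the 30 higher and 16 of the 21 lower genes. The 250 bases upstream of the start of 5 called genes are given from 5′ to 3′ on the gene's strand, with CG dinucleotides, the sites of CpG islands, in capitals. They cover the homeobox gene Nkx6-1, Nptx2, the transcription factor gene Cebpa and the natriuretic peptide gene Nppb, all higher in K815R, and Prkaa2, which was lower; Prkaa2 has the most CG of the lower genes with a window.
Nkx6-1 (chr14:8273988-8274237, plus strand): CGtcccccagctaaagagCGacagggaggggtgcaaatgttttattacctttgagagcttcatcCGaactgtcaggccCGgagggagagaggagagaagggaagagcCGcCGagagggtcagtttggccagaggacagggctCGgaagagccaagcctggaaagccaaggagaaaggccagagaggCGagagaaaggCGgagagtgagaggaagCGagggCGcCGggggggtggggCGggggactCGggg
Nptx2 (chr12:15162046-15162295, minus strand): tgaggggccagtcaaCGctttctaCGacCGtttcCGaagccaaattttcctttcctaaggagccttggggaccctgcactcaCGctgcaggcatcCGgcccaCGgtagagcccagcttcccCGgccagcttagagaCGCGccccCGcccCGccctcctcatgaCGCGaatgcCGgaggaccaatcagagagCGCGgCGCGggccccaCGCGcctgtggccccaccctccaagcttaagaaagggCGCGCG
Cebpa (chr1:96896334-96896583, plus strand): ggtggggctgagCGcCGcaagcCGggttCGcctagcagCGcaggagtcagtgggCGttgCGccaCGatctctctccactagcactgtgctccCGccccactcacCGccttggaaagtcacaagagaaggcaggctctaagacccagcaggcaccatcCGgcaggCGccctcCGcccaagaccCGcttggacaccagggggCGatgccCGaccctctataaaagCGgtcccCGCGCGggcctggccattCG
Nppb (chr5:163699758-163700007, plus strand): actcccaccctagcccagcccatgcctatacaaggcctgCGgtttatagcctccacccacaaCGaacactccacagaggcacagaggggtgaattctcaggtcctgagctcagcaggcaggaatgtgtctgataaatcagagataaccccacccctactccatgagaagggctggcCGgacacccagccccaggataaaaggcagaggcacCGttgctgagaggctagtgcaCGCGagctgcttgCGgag
Prkaa2 (chr5:125108325-125108574, minus strand): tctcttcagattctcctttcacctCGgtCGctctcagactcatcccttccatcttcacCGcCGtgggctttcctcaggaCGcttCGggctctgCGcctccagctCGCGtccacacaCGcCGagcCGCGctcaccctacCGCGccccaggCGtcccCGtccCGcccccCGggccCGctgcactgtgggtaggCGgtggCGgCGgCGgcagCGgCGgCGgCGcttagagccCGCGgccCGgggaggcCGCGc

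These windows hold 14, 24, 21, 7 and 33 CG dinucleotides in that order. The median was 15 for the genes higher in K815R, 9 for the lower genes and 15.5 for the 66 low-level homeobox genes with a window, beside 16 for 10071 tested genes. CG content upstream of the higher and homeobox genes was thus near that of tested genes, and above the median of 6 over all genes with a window. The genes with at least 5 reads in each K815R library and at most 3 in each library labelled K815Q had a median of 19, over 15 with a window. The motif TATAAA, the core of the TATA box, occurred on either strand of the 300-base window (250 bases before to 50 after the start) in 5 of 20 higher genes (25%) and 6 of 16 lower genes (37.5%), against 7.54% of tested genes and 15.3% of all windows. Cebpa and Nppb are among the higher genes with it. The E-box CACGTG, in 10% and 6.25% of the called genes, was near the 9.51% of tested genes. These are matches of letters and not measured sites.

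Nptx2, Hspa2 and Cebpa were called in each leave-one-out fit. Nptx2, a secreted pentraxin known from synapses, stood at 3.35, 2.52 and 2.45 CPM in K815R and 0.78, 0.86 and 0.83 CPM in the K815Q-labelled libraries. The groups were well apart (log2 fold change 1.73, SE 0.232; edgeR, Benjamini-Hochberg adjusted p = 3.53e-04). Unlike Barx1 and Pou3f1, it had a mean of 2.30 CPM in WT, close to K815R.

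Hspa2, a member of the HSP70 chaperone family best known from the testis, had the lowest p of the comparison. It stood at 24.2, 25.0 and 25.7 CPM in K815R and 13.3, 13.7 and 12.2 CPM in the K815Q-labelled libraries, a spread within groups far smaller than the gap (log2 fold change 0.94, SE 0.085; edgeR, Benjamini-Hochberg adjusted p = 1.96e-06). LacZ was at 13.0 CPM and WT at 19.3 CPM on average. It was the single call among 26 tested heat shock proteins and chaperones, whose median was 0.05.

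Cebpa, a transcription factor of adipose, liver and myeloid cells, was at 8.91, 8.87 and 8.85 CPM in K815R and 5.51, 5.33 and 5.94 CPM in the K815Q-labelled libraries (log2 fold change 0.67, SE 0.109; edgeR, Benjamini-Hochberg adjusted p = 0.00458). The LacZ mean of 4.70 CPM and the WT mean of 5.42 CPM lay with the lower group. Epop, whose product links Elongin BC to the Polycomb complex PRC2, showed the same order at 7.78, 7.72 and 7.17 CPM against 5.35, 5.03 and 5.16 CPM (log2 fold change 0.54). Epop was no longer called in 4 leave-one-out fits, among them that without K815Q replicate 1 (0.57).

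Of 16 tested markers of cardiomyocyte growth, 3 were called higher in K815R (0.213% of all genes were). The mean was above that of the K815Q-labelled libraries in 12 of the 16, beside 49.8% of all genes, with a median log2 fold change of 0.18. Nppb, the B-type natriuretic peptide released by stressed heart muscle, stood at 1332, 1245 and 1123 CPM in K815R and 889, 1013 and 858 CPM in the other group. The groups did not overlap (log2 fold change 0.42, SE 0.065; edgeR, Benjamini-Hochberg adjusted p = 0.00293), and the call held in all 6 leave-one-out fits. Myh7, the slow beta-myosin heavy chain of fetal ventricle, stood at 4945, 5153 and 5100.0 CPM against 3251, 3986 and 3698 CPM. Its log2 fold change of 0.48 (SE 0.088; edgeR, Benjamini-Hochberg adjusted p = 0.0281) kept its call only without K815Q replicate 2, with values of 0.40 to 0.54 across the 6 fits. Without K815Q replicate 1, the lowest library, it was 0.40.

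Fhl1, a LIM protein of the sarcomere, was at 403, 412 and 418 CPM against 351, 342 and 357 CPM (log2 fold change 0.23), and its call was lost in all 6 of those fits. Nppa, the A-type natriuretic peptide, had 13857, 12980 and 13763 CPM in K815R and 11542, 10998 and 12081 CPM in the K815Q-labelled libraries; the groups did not overlap but the gene was not called (log2 fold change 0.23; edgeR, Benjamini-Hochberg adjusted p = 0.195). Without the filter on low counts, Nppa and Pdk4 were called. Acta1, skeletal alpha-actin, and the stretch-responsive Ankrd1 had log2 fold changes of 0.32 and 0.29 and were not called; these 2 were chosen after their values were seen. Myh6, the adult alpha-myosin heavy chain, was at 0.03 with a 95% interval of −0.09 to 0.14. The cardiomyocyte marker sum given above, of which Nppa is itself a member, overlapped between the groups without Nppa and Actc1.

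Other muscle genes went the opposite way. Myh3, the embryonic myosin heavy chain, stood at 4.79, 5.48 and 5.40 CPM in K815R and 7.28, 6.86 and 8.75 CPM in the K815Q-labelled libraries (log2 fold change −0.54; −0.57 and no call without K815Q replicate 1). Mb, which encodes the oxygen carrier myoglobin, was at 1042, 819 and 966 CPM against 1214, 1114 and 1240.2 CPM (−0.34); K815R replicate 2 was the lowest, and without it the value was −0.24 and no longer called. Dhrs7c, a protein of the sarcoplasmic reticulum, had 14.5, 12.0 and 14.1 CPM against 22.4, 19.8 and 19.2 CPM (−0.60, SE 0.097; edgeR, Benjamini-Hochberg adjusted p = 0.00402). Its call was lost only without K815Q replicate 1, at −0.53. Among 23 tested thick and thin filament and Z-disc genes, 0 were called by edgeR, 5 had an unadjusted p under 0.05 and the median was 0.03.

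Gja5, the gap junction protein connexin 40 of atrial and conduction tissue, stood at 23.4, 26.5 and 21.6 CPM in K815R and 37.5, 33.0 and 30.9 CPM in the K815Q-labelled libraries. The groups did not overlap (log2 fold change −0.50, SE 0.088; edgeR, Benjamini-Hochberg adjusted p = 0.0122); the call was lost without K815R replicate 3 (−0.43) and without K815Q replicate 1 (−0.42). Kcnk2, the mechanosensitive potassium channel TREK-1, had 5.98, 4.65 and 4.86 CPM against 8.32, 8.18 and 7.87 CPM (−0.66) and was the only call among 29 tested ion channel genes. Of those 29, 10 had an unadjusted p under 0.05, in either direction. Kcnk2 kept its call in 3 leave-one-out fits and lost it without K815Q replicate 1 (−0.65), K815R replicate 2 (−0.59) and K815R replicate 3 (−0.62). Rgs2, which turns off signals from Gq-coupled receptors, was at 28.3, 24.2 and 26.4 CPM against 36.3, 34.1 and 30.4 CPM (−0.36). It was the single call among 25 genes of adrenergic, endothelin and angiotensin signalling, of which 7 had an unadjusted p under 0.05. Rgs2 stayed called in 2 of the leave-one-out fits and was −0.30 without K815Q replicate 1.

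Among the lower genes were 5 that encode secreted or matrix proteins, grouped after the calls were seen. The binding proteins of insulin-like growth factors Igfbp2 and Igfbp4 were both lower in K815R: Igfbp2 stood at 2.73, 2.13 and 2.72 CPM against 4.37, 4.01 and 4.06 CPM (log2 fold change −0.72) and Igfbp4 had −0.28. Ccn5, a matricellular protein of the CCN family, stood at 21.4, 18.3 and 19.1 CPM against 30.5, 26.6 and 26.7 CPM (−0.52). Cilp, a matrix protein of fibroblasts, stood at 10.6, 10.9 and 10.0 CPM against 15.6, 12.9 and 15.0 CPM (−0.46), and Fbln2, fibulin 2, had −0.24. Cilp2, a relative of Cilp, went the other way, at 3.71, 3.59 and 3.00 CPM against 1.25, 2.08 and 1.35 CPM (1.13).

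In these matrix genes too the 2 groups of libraries did not overlap. All 6 lost their call without K815Q replicate 1, with log2 fold changes there of −0.68 for Igfbp2, −0.26 for Igfbp4, −0.45 for Ccn5, −0.41 for Cilp, −0.23 for Fbln2 and 0.99 for Cilp2. The summed fibroblast markers were lower in every K815R library, with 7 of 10 members lower and a median of −0.15. By edgeR 0 of the 10 were called, and 6 had an unadjusted p under 0.05 in either direction, beside 11.4% of all genes. None of the 10 was at 0 in the 6 libraries, and the part of these markers in the matrix genes was not tested. Of 32 tested genes of collagens, matrix and TGF-beta response, 1 was called, the gelatinase gene Mmp9, which was higher in K815R (8.81, 11.0 and 10.2 CPM against 5.61, 7.92 and 5.84 CPM, 0.63). Its call was kept in 2 of the 6 leave-one-out fits and lost without K815Q replicate 1, at 0.54.

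Slc16a14, of the monocarboxylate transporter family, stood at 1.85, 1.89 and 1.27 CPM in K815R and 3.48, 2.84 and 3.07 CPM in the K815Q-labelled libraries (log2 fold change −0.90). Fam180a stood at 4.02, 3.74 and 3.09 CPM against 6.76, 5.33 and 6.20 CPM (−0.75). Cdkn2b, the cell cycle inhibitor p15, had 21.3, 18.0 and 20.7 CPM against 26.8, 25.9 and 26.3 CPM (−0.40). It was the single call in the list of 25 tested genes drawn up for p53 targets, and a link to p53 was not tested. Scarf2, the phosphatase targeting subunit Ppp1r10, the lipid droplet gene Fitm1, Clic2, the inositol synthase Isyna1 and the ring finger gene Rnf207 had log2 fold changes of −0.35, −0.31, −0.31, −0.29, −0.27 and −0.24. Each of these 9 genes lost its call in 3 to 6 of the leave-one-out fits, that without K815Q replicate 1 included.

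Several called signalling genes, grouped after the calls were seen, were higher in K815R, whereas Rgs2, described above, was lower. Dusp4, a nuclear phosphatase that is induced by and switches off ERK, stood at 67.4, 77.6 and 70.3 CPM in K815R and 51.8, 54.9 and 52.3 CPM in the K815Q-labelled libraries (log2 fold change 0.44, SE 0.056; edgeR, Benjamini-Hochberg adjusted p = 2.63e-04), and stayed called in each leave-one-out fit. Spry4, another feedback inhibitor of ERK signalling, had 76.5, 75.8 and 73.0 CPM against 48.9, 65.3 and 57.4 CPM (0.39). Its lowest library was K815Q replicate 1, and without it the value was 0.29 and not called. The receptor tyrosine kinases Epha2, an ephrin receptor, and Flt4, VEGF receptor 3 of lymphatic endothelium, had log2 fold changes of 0.36 and 0.41.

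The oncostatin M receptor gene Osmr was also higher in K815R than in the K815Q-labelled libraries (0.31), as were the transcriptional repressor Bcl6 (0.38), the WNT agonist Rspo3 (0.73) and the glycoprotein gene Lrg1 (0.73). Rspo3 had 3.81, 3.63 and 3.31 CPM against 2.29, 2.34 and 1.82 CPM. Lrg1 had 5.05, 4.85 and 4.50 CPM against 2.96, 3.55 and 2.14 CPM. Flt4 is an endothelial gene, and all 8 tested endothelial markers were higher in K815R, with a median of 0.18 and 0 called in edgeR. Their sum of 206 to 237 CPM in K815R overlapped that of 164 to 222 CPM in the K815Q-labelled libraries, 1 of the 8 had an unadjusted p under 0.05, and none was at 0 in these libraries. Their part in the Flt4 difference was not tested. Without K815Q replicate 1 the calls of Epha2, Flt4, Osmr, Bcl6, Rspo3 and Lrg1 were lost, at 0.29, 0.41, 0.29, 0.36, 0.78 and 0.75.

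Gch1, which controls the first step of tetrahydrobiopterin synthesis, stood at 11.2, 9.50 and 9.67 CPM in K815R and 5.87, 6.86 and 6.20 CPM in the K815Q-labelled libraries (log2 fold change 0.68, SE 0.123; edgeR, Benjamini-Hochberg adjusted p = 0.0124). It was the single call among 14 tested genes of tetrahydrobiopterin and nitric oxide synthesis and kept its call in 3 of the 6 leave-one-out fits, with 0.63 and no call without K815Q replicate 1. Rbl1, the retinoblastoma relative p107, stood at 4.07, 4.61 and 4.50 CPM against 2.34, 2.84 and 2.71 CPM (0.74). C2cd4b stood at 11.1, 10.9 and 11.1 CPM against 5.87, 7.62 and 7.55 CPM (0.65). Nefh, a neurofilament subunit of neurons, stood at 8.91, 7.92 and 8.04 CPM against 5.41, 5.38 and 5.78 CPM (0.58), and Snap91, a clathrin assembly protein, had 0.28. In each of these the K815R libraries were all above the others. Rbl1, C2cd4b, Nefh and Snap91 each lost their call without K815Q replicate 1, at 0.66, 0.54, 0.57 and 0.26.

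The 2 groups departed from LacZ in different sets of these genes. K815R and the K815Q-labelled libraries are compared here with the same LacZ libraries. The genes were also called from these same K815R and K815Q-labelled libraries, which favours calls against LacZ or WT beforehand. The shares over all genes are therefore no like baseline, and the values only place the genes. Of the 30 genes higher in K815R, 15 were called higher in K815R than in LacZ (2.47% of all genes were called in either direction in that comparison) and 11 were called lower in the K815Q-labelled libraries than in LacZ (7.85% of all genes). The remaining 4, Lrg1, Mmp9, Myh7 and Fhl1, were called in neither. The first kind holds Kat6a, Hspa2, Cebpa, Epop, Dusp4, Cilp2 and the developmental genes, and the second holds Nppb, Spry4, Bcl6, Osmr, Gch1, Rspo3, Rbl1, Flt4, Epha2, Nefh and Snap91.

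Of the 21 lower genes, 12 were called higher in the K815Q-labelled libraries than in LacZ, Prkaa2, Igfbp2, Mb, Ccn5 and Dhrs7c among them. Only Gja5 and Fbln2 were called lower in K815R than in LacZ, and 7 genes were called in neither comparison. Nppb is an example of the second kind: LacZ averaged 1121 CPM, near K815R at 1233 CPM, whereas WT at 902 CPM and the K815Q-labelled libraries at 920 CPM were lower. Against WT, which shares the raised Kat6a, 16 of the 30 higher genes were called higher in K815R and 11 of the 21 lower genes were called lower (2.2% of all genes were called in that comparison). In the K815Q-labelled libraries 5 of the 30 were called lower than in WT and 6 of the 21 higher (1.07% of all genes).

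**Figure D4:**
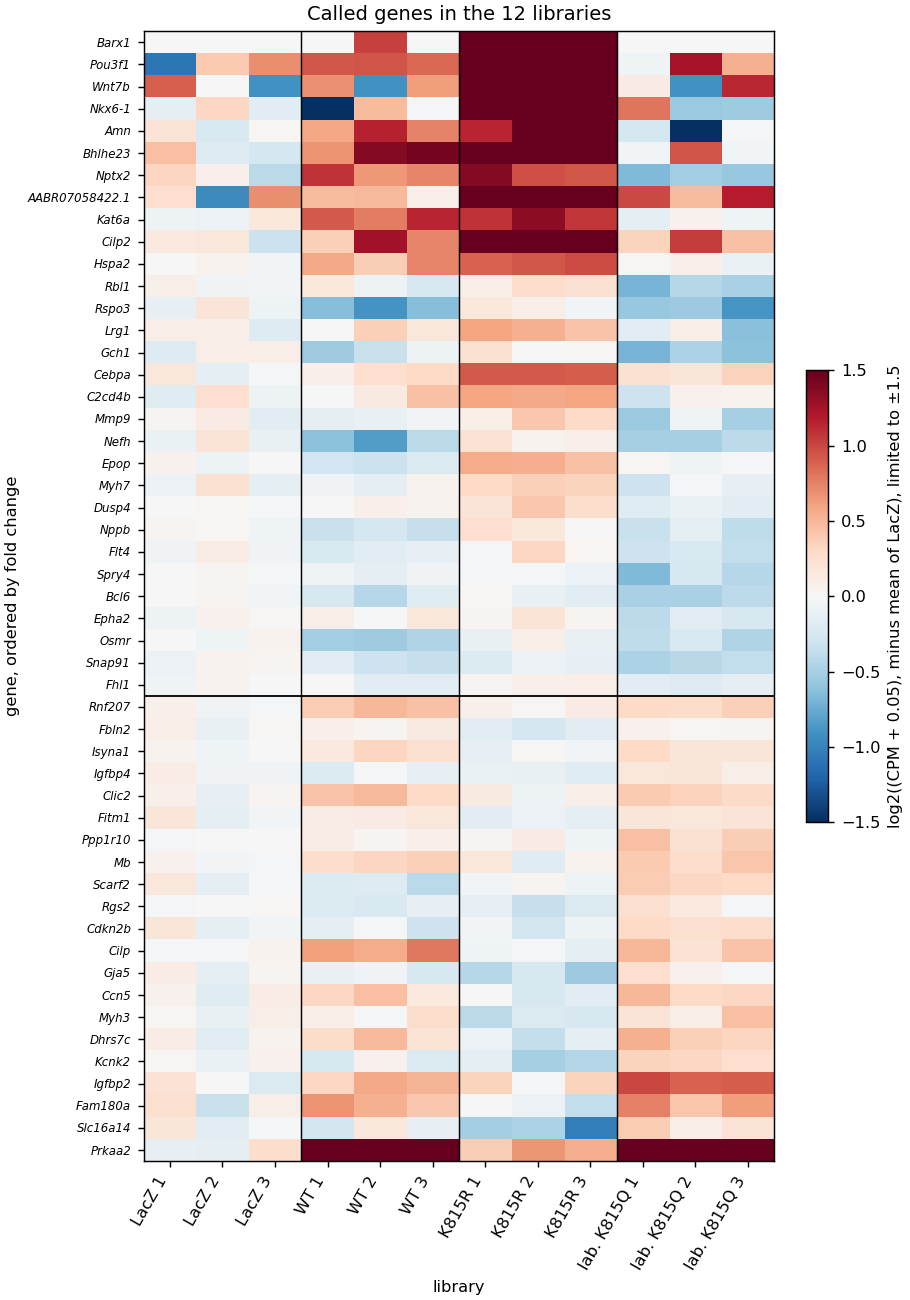
The 51 called genes (vertical, ordered by fold change, with a line between higher and lower genes) in the 12 libraries (horizontal); colour is log2(CPM + 0.05) minus the LacZ mean, limited to 1.5 on either side. Genes at the top are above LacZ in every K815R library, and in the middle block the K815Q-labelled libraries lie below LacZ for genes such as Spry4, Bcl6 and Snap91.

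All 33 tested type I interferon-stimulated genes had a higher level in K815R than in the K815Q-labelled libraries, with a median log2 fold change of 0.71, while 49.8% of all tested genes were higher and their median was −0.0008. By edgeR 0 were called, and 21 had an unadjusted p under 0.05. Isg15, a ubiquitin-like antiviral protein, stood at 17.4, 12.8 and 13.9 CPM in K815R and 4.99, 5.38 and 6.04 CPM in the K815Q-labelled libraries (log2 fold change 1.42, SE 0.453; edgeR, Benjamini-Hochberg adjusted p = 0.288). The members at the ends of the list were the antiviral enzyme Oas2 at 1.80 and the interferon signalling factor Irf9 at 0.24. Both groups were far below LacZ, where Isg15 had 40.4, 80.2 and 37.3 CPM: the list's median against LacZ was −1.59 in K815R and −2.26 in the K815Q-labelled libraries. These genes move together in a cell, so the 33 are not 33 independent observations. Isg15 and the other sampled genes were chosen by the list or after their values were seen.

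**Figure D5:**
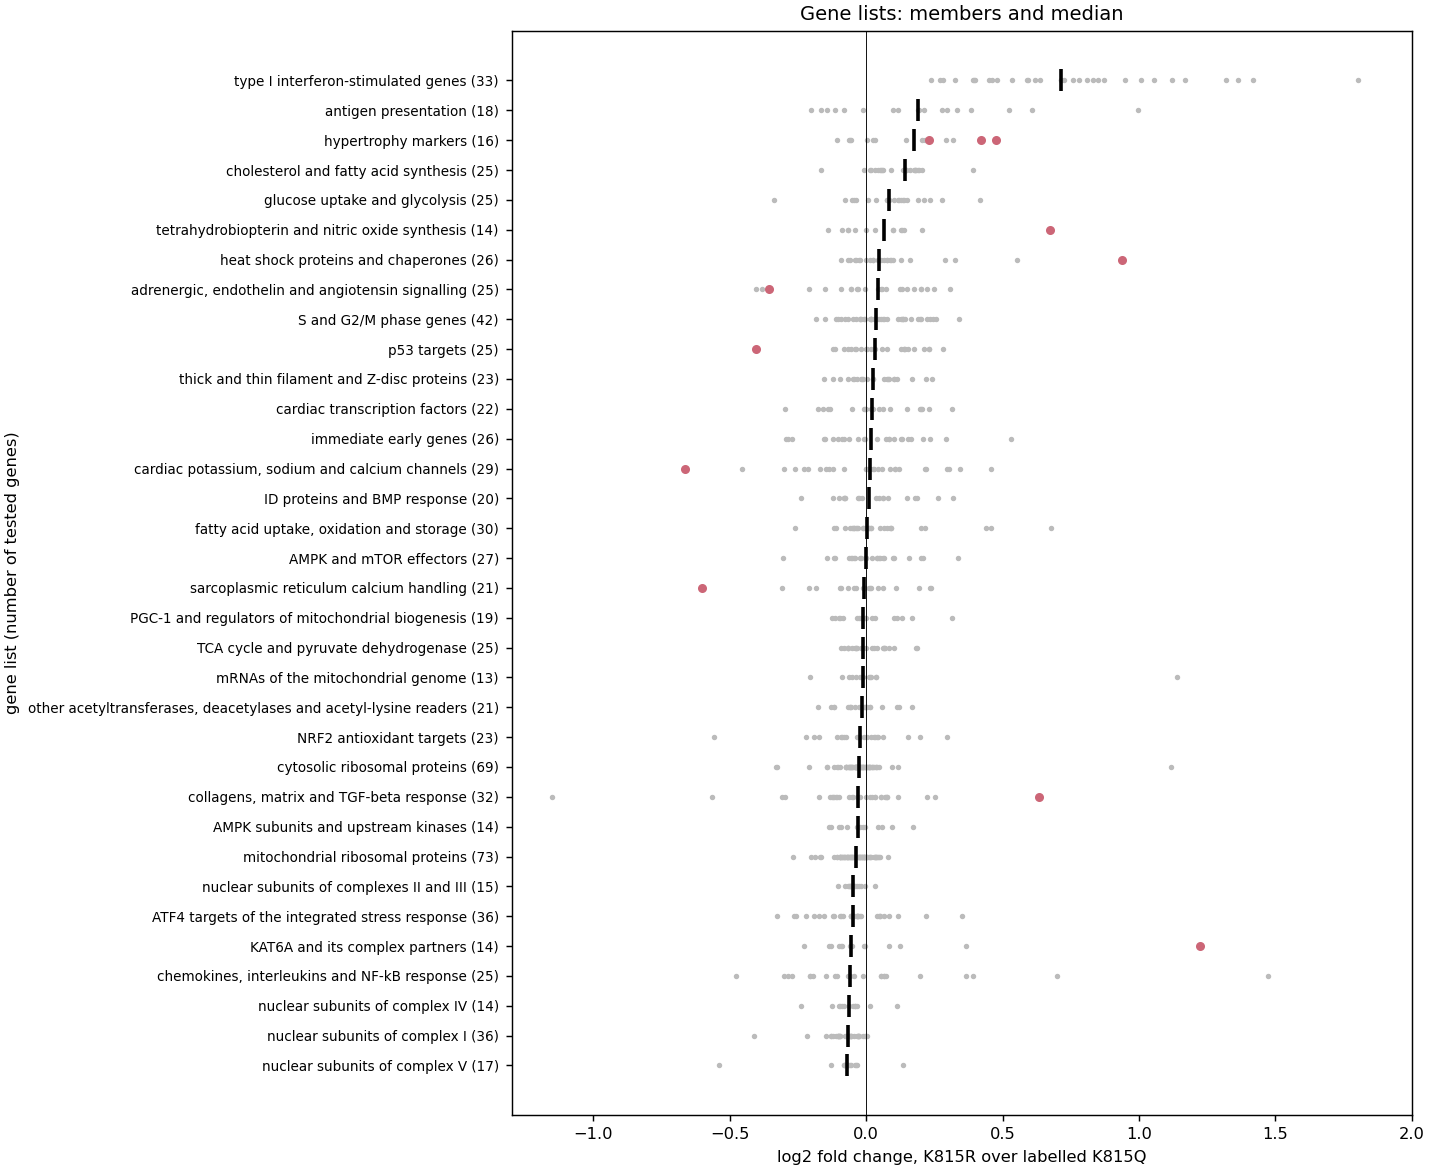
Log2 fold change of K815R over the K815Q-labelled libraries (horizontal) for the tested members of each gene list other than cell type markers (vertical, number tested in brackets); grey points are members that were not called, red points are called genes and the black tick is the list's median. Members beyond −1.3 or 2 are not drawn, which leaves out Prkaa2 at −3.74. The interferon list has its median at 0.71, and the other lists drawn have theirs between −0.07 and 0.19.

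Genes of cholesterol and fatty acid synthesis were higher in K815R in 23 of 25 cases, with a median of 0.14, 12 at an unadjusted p under 0.05 and 0 called by edgeR. The sterol carrier gene Stard4 was the highest at 0.39 (edgeR, Benjamini-Hochberg adjusted p = 0.0623) and Srebf1, the master factor of fatty acid synthesis, the lowest at −0.17. Glucose uptake and glycolysis genes were higher in 20 of 25 cases, with a median of 0.09, 6 at an unadjusted p under 0.05 and 0 called by edgeR. Antigen presentation genes had a median of 0.19, with 12 of 18 higher and 0 called by edgeR, 4 at an unadjusted p under 0.05.

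Nuclear genes of oxidative phosphorylation lay slightly lower in K815R than in the K815Q-labelled libraries. This held for 34 of 36 tested gene entries of complex I, 14 of 15 of complexes II and III, 12 of 14 of complex IV and 16 of 17 of complex V, with medians of −0.07, −0.05, −0.06 and −0.07. Ndufv3, Uqcrb and Cox6b1 were each entered more than once, always on the lower side, so the entries are not all independent observations. By edgeR 0 were called, and 2, 0, 1 and 0 had an unadjusted p under 0.05. Mitochondrial ribosomal proteins were lower in 56 of 73 cases, with a median of −0.04, whereas the 13 mRNAs of the mitochondrial genome were higher in 6 and lower in 7. When 1 library was left out the medians ran from −0.11 to −0.01 for complex I and from −0.08 to 0.00 for complexes II and III.

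In the other lists the medians were small, which can hide members that moved in opposite directions. Fatty acid uptake, oxidation and storage had a median of 0.00 over 30 genes, the TCA cycle −0.01 over 25, calcium handling of the sarcoplasmic reticulum −0.01 over 21, cardiac transcription factors 0.02 over 22, immediate early genes 0.02 over 26 and S and G2/M phase genes 0.04 over 42. In that order 3, 1, 2, 4, 5 and 8 genes had an unadjusted p under 0.05, beside 11.4% of all genes. ATF4 targets of the integrated stress response were lower in 27 of 36 cases, with a median of −0.05 and 0 called by edgeR, 7 at an unadjusted p under 0.05. Chemokines, interleukins and NF-kB response genes had a median of −0.06 over 25 genes, NRF2 targets −0.02 over 23, p53 targets 0.03 over 25, ID and BMP genes 0.01 over 20 and cytosolic ribosomal proteins −0.03 over 69. Here 6, 3, 8, 3 and 0 genes in that order had an unadjusted p under 0.05. The list drawn up for the KAT6A complex had 14 tested genes, with Kat6a itself the only call. Its median was −0.06 and Brpf3 was the lowest at −0.23. Other MYST genes, such as Kat7, and the JADE genes are also in it, so the median is not that of the complex alone. Among 21 other acetyltransferases, deacetylases and readers, 0 were called by edgeR, 1 had an unadjusted p under 0.05 and the median was −0.01.

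Some genes with large fold changes varied widely within a group and were not called. Pdcd5, a gene linked to apoptosis, stood at 0.15, 0.00 and 0.59 CPM in K815R and at 19.1, 0.05 and 18.6 CPM in the K815Q-labelled libraries (edgeR, Benjamini-Hochberg adjusted p = 0.23). Col1a2, a collagen I chain, stood at 74.3, 9.14 and 16.9 CPM against 126, 81.0 and 9.85 CPM (log2 fold change −1.15; edgeR, Benjamini-Hochberg adjusted p = 0.689). Both overlapped between the groups. Mt-nd4 and Rps9, the highest members of the mitochondrial genome and cytosolic ribosome lists, had log2 fold changes of 1.14 and 1.12 and were not called. Pdcd5 was chosen after its values were seen.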

How the data were processed

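Poly(A) RNA of 12 cardiomyocyte samples was counted per gene. The authors deposited raw read counts for 32883 Ensembl rat genes. Per the submitters' processing notes the tools were Trimmomatic 0.39, HISAT2 2.2.1, HTSeq 0.6.1 and edgeR, and the build was Rnor_6.0. The strand setting is not given in the sources used here, so overlapping and antisense genes are uncertain. Of all reads, 56.8% to 59.3% were counted in a gene in the 6 libraries compared; the 5 counter lines that name no gene stayed out.

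Counts were scaled by TMM and filtered with filterByExpr (minimum count 10, minimum total 15) over all 12 libraries. One model of group means was fitted with edgeR 4.0.16 (robust quasi-likelihood test) in R 4.3.3, so that all 12 libraries share 1 estimate of the spread (biological coefficient of variation 0.0581). P-values were adjusted by Benjamini-Hochberg over 14063 genes and called below 0.05. SE is the absolute log2 fold change divided by the square root of F. Chi-square per degree of freedom between replicates was 5.08 to 8.74, so no library was a copy of another.

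By rule, the 12 higher and 12 lower called genes of at least 1 CPM without overlap and with the largest change were given per library, with a panel of 16 genes, the called, highest and lowest members of each list, and other called genes by fold change. Members and lists were chosen with earlier results of these data known. The procedure was tested on simulated data. RefSeq promoter windows (GRCr8) were matched by symbol; genes without a match were not analysed here. Other settings tried were scaling by RLE or upper quartile, testing all genes without a filter, a minimum of 10 counts in each library, DESeq2 1.42.0, a replicate block, a fit of the 6 libraries alone and leave-one-out fits.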

Additional observations from a re-analysis of the deposited data

How the results depend on the processing

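Against 51 calls by edgeR, RLE scaling gave 51, upper-quartile scaling 54 and a minimum of 10 counts in each library 37. Larger numbers came from DESeq2 (101, of which 42 were shared), from the 6 libraries alone (85, 43 shared) and without a filter (307, of which 282 are genes of the filtered test; 205 higher and 102 lower). Leave-one-out fits gave 11 to 98. The cause of these differences was not tested. Without the filter Pdk4 (0.44) and Nppa (0.23) were also called. Fitted on the 6 libraries alone, Mb, Spry4, Osmr, Rspo3, Lrg1 and Myh3 were not called, and Barx1 and Bhlhe23 were not tested. The limits of 0.25 and 0.15 CPM for genes near the detection limit, and the leave-one-out counts of these and of homeobox genes, were chosen after seeing the data. These CPM limits gave 15 genes in place of 24. Leave-one-out gave 33 to 54 in K815R and 7 to 14 in the other direction, numbers that by the rule can only stay or rise.

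With the replicate number as a replicate block, 86 genes were called, all 51 among them. Same-numbered libraries deviated together with correlations of 0.0622, 0.122 and 0.0741, and each library correlated best with its own number, a hint from the data and not from the design. The labels do not say that the numbers pair the samples.

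Leave-one-out log2 fold changes of Myh7 ran from 0.40 to 0.54, with the call kept in 1 of 6. Uncalled genes near 0 changed sign: −0.0896 to 0.0824 for Prkaa1, −0.00398 to 0.0801 for Prkag1, −0.075 to 0.038 for Prkag2, −0.11 to 0.074 for Ppargc1a, −0.024 to 0.011 for Esrra, −0.0094 to 0.059 for Myh6. Leave-one-out medians of lists ran from 0.14 to 0.19 for growth markers, 0.0023 to 0.057 for cardiac transcription factors, −0.078 to −0.0016 for the KAT6A complex, −0.062 to −0.0018 for AMPK subunits and kinases, −0.026 to 0.011 for regulators of mitochondrial biogenesis, 0.073 to 0.14 for glycolysis, −0.014 to 0.087 for tetrahydrobiopterin and nitric oxide synthesis, 0.57 to 0.79 for interferon-stimulated genes, −0.085 to 0.036 for chemokines and NF-kB response, −0.0696 to −0.0363 for ATF4 targets, −0.013 to 0.098 for immediate early genes, −0.038 to 0.023 for ID and BMP genes, −0.043 to −0.0096 for other acetylation enzymes, −0.0094 to 0.059 for cardiomyocyte markers, −0.12 to 0.011 for macrophage markers and −0.093 to 0.032 for smooth muscle and pericyte markers. At this depth a gene under about 0.118 to 0.156 CPM has fewer than 3 reads, so low-level differences rest on few reads.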
